A study of Mus musculus with 30 samples.

Results

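The effect of oxidized low density lipoprotein (oxLDL) was examined in cells that all received pNaKtide, by comparing 5 RNA-seq libraries of 3T3-L1 cells given oxLDL and pNaKtide together with 5 libraries of cells given pNaKtide alone. These 10 libraries were taken by their labels from the 30 of the series, and no control library entered the contrast. 3T3-L1 is an established mouse preadipocyte line, which was kept for 5 days in adipogenic medium containing insulin, dexamethasone, isobutylmethylxanthine and indomethacin. The oxLDL dose was 50 µg/mL and the pNaKtide dose 0.7 µM, and both compared groups therefore share the peptide and the medium. Treatment lasted 5 days by the labels, whereas the study's methods give 2 days at 24 h intervals. A further 5 libraries of untreated Control cells and 5 of cells given oxLDL alone were used to test whether the oxLDL change differed with the peptide. The remaining 10 libraries, from cells given indoxyl sulfate with or without pNaKtide, entered no contrast. They entered the count filter, the scaling, the estimate of the spread, the principal components and the mean against which GC content deviations were taken. Since the labels do not say whether the 5 libraries of a group came from separate cultures, p-values measure the spread between these libraries, which may be technical.

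pNaKtide is a cell-permeant peptide derived from the Na,K-ATPase that inhibits the Src kinase bound to the pump, and it was designed to interrupt an oxidant signal that runs from the Na,K-ATPase through Src. OxLDL is a lipoprotein particle whose lipids and protein have been oxidized. It is taken up by scavenger receptors such as CD36 and delivers both sterols and oxidized lipids. Adipocytes take up lipoprotein lipid, make fatty acids and cholesterol under the control of the SREBP transcription factors, and secrete adipokines. When cell sterol is plentiful, INSIG proteins hold the SREBP escort protein SCAP in the endoplasmic reticulum and the genes of cholesterol synthesis are transcribed less.

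Total counts ran from 6945498 to 11534363 in the oxLDL + pNaKtide libraries and from 8384882 to 11090548 in the pNaKtide libraries, so the precision of a gene with few counts is limited by counting error. Adipocyte markers other than Lep were expressed in all 10 libraries, with Adipoq at 937 to 1440 and Cidec at 5120 to 7480 CPM (counts scaled to a common library size with the TMM factors of edgeR). Lep was at 0 to 0.463 CPM. The preadipocyte markers were expressed too: Dlk1 stood at 103 to 270, Pdgfra at 71.6 to 125, Pdgfrb at 58.3 to 90.4, Thy1 at 58.8 to 86.4 and Ly6a at 20.3 to 32.1 CPM. Of the markers of other cell types, Adgre1, Ptprc and Itgam of macrophages, Cdh5 of endothelium, Myod1, Myog and Ckm of muscle and Krt5 of epithelium had 0 counts in all 10 libraries. Kdr, Tek and Pecam1 of endothelium and Csf1r of macrophages had at most 5 counts in a library, and the epithelial Cdh1, Epcam and Krt14 at most 16. The macrophage marker Cd68 was at 3.44 to 7.23 CPM and the muscle marker Des at 19.2 to 37.6 CPM in these libraries, and their part in any result was not tested. On the first principal component of the 30 libraries, which held 64.0% of the variance, oxLDL + pNaKtide replicate 4 scored 68.1 against 14.5 to 33.9 for the other 4, and pNaKtide replicate 3 scored -5.58 against 16.3 to 37.1. This score went with base composition: across genes, Spearman's rho between a library's deviation from the mean log2 CPM and GC content was -0.462 in pNaKtide replicate 3 and 0.416 to 0.598 in the other 4 pNaKtide libraries, and 0.189 to 0.633 in the oxLDL + pNaKtide libraries. Control replicate 1, which enters every change without pNaKtide, scored -26.0 on the first component, against 6.50 to 30.3 in the other Control libraries. Its rho was -0.396, against 0.0768 to 0.646. Indoxyl sulfate replicate 4 scored 28.5, against -37.2 to -23.5 in the other libraries with indoxyl sulfate alone. On the third component, with 4.55% of the variance, the compared groups did not overlap, with scores of 4.28 to 17.8 under oxLDL + pNaKtide and of -3.25 to 2.66 under pNaKtide. Intestinal genes were counted in pNaKtide replicate 2 (312 counts over 15 genes, among them 24 of Vil1, 27 of Sis and 42 of Fcgbp) and less in replicate 4, with 109 counts over 12 genes, 60 of them of Lgals4. Lgals4 had 10 to 85 counts in every library, so the total of oxLDL + pNaKtide replicate 3 was 91, not far below, while Vil1, Sis and Fcgbp had 0 to 2 counts in each of the other 8 libraries. These 15 genes were chosen after their values were seen, and their part in any result was not tested.

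**Figure D1:**
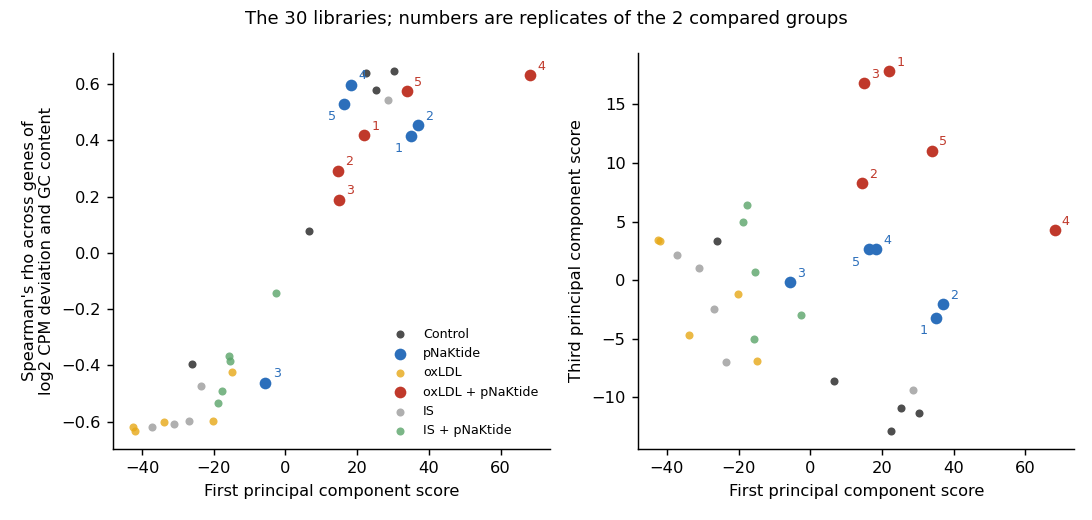
Each point is 1 of the 30 libraries, coloured by group (IS, indoxyl sulfate), with the first principal component score on the x axis; the y axis is, on the left, Spearman's rho across genes between the library's log2 CPM deviation and GC content and, on the right, the third component score, both without units. The 5 oxLDL + pNaKtide libraries lie above the 5 pNaKtide libraries on the third component (4.28 to 17.8 against -3.25 to 2.66), and pNaKtide replicate 3 lies with the libraries of negative rho.

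With the peptide present in both groups, oxLDL left few genes past the threshold. Among 20139 genes tested with edgeR's quasi-likelihood test, 5 (0.0248%) had a Benjamini-Hochberg adjusted p under 0.1, of which 4 (0.0199%) were lower and 1 (0.00497%) was higher under oxLDL + pNaKtide. At an unadjusted p under 0.05 there were 1363 genes (6.77%), 525 higher (2.61%) and 838 lower (4.16%), and the 5 libraries of one group did not overlap the 5 of the other for 189 genes (0.938%), 74 of them higher and 115 lower (0.571%). In the 12560 genes whose log2 CPM averaged 1 or more, the median absolute log2 fold change was 0.10, the median SE was 0.13, and the 95% interval lay within 1 log2 unit of 0 for 12390 (98.6%). The count depended on the method: DESeq2 called 95 genes (0.472%), 36 higher (0.179%) and 59 lower (0.293%), with all 5 genes of edgeR among them, whereas edgeR on the 10 compared libraries alone called 0, with 805 genes at an unadjusted p under 0.05. With offsets for GC content and transcript length, 33 genes (0.164%) were called, 13 higher (0.0647%) and 20 lower (0.0995%), 4 of them shared with the 5.

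**Figure D2:**
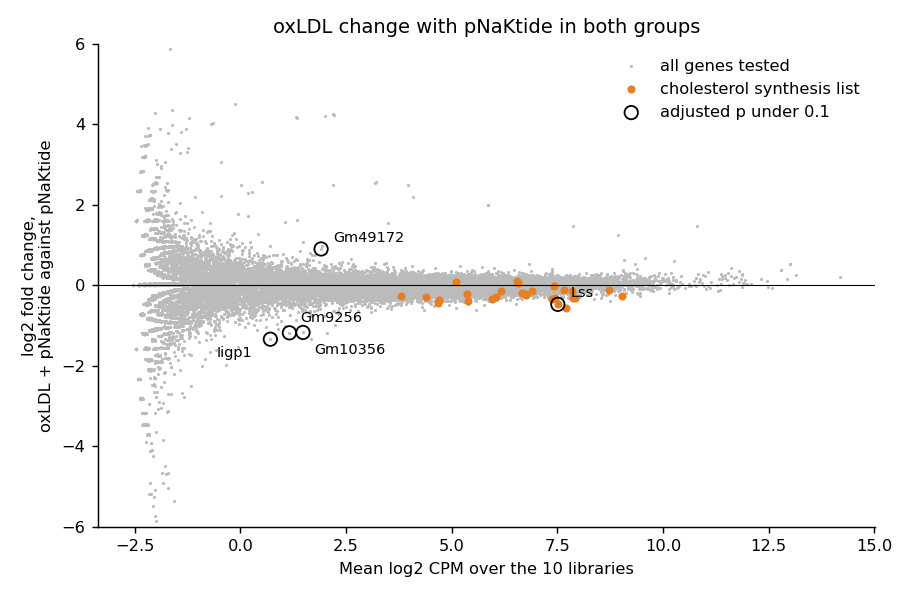
Each grey point is 1 of 20139 genes, with its mean log2 CPM over the 10 libraries on the x axis and its log2 fold change between oxLDL + pNaKtide and pNaKtide on the y axis; 3 genes lie beyond the 6 log2 units drawn. The 5 genes with an adjusted p under 0.1 are circled and named, and most members of the cholesterol synthesis list (orange) lie just below 0.

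Lss, which encodes lanosterol synthase, the enzyme that closes squalene epoxide into the first sterol of the cholesterol pathway, fell 1.39-fold under oxLDL with the peptide. Its CPM was 165, 148, 134, 162 and 170 in the oxLDL + pNaKtide libraries and 232, 243, 218, 190 and 196 in the pNaKtide libraries. Every oxLDL + pNaKtide library was below every pNaKtide library. The group means were 156 ± 14.7 and 216 ± 22.8 CPM (SD, n = 5 each), and the log2 fold change was -0.47 (SE 0.09, edgeR adjusted p = 0.082). DESeq2 gave an adjusted p of 0.000333, and the call was lost with GC content and length offsets (log2 fold change -0.42, adjusted p = 0.201). With 1 of the 10 libraries left out in turn, the log2 fold change stayed between -0.51 and -0.42 and the adjusted p between 0.0185 and 0.297, under 0.1 in 4 of 10 fits. Lss lies on chromosome 10 (76531588 to 76557138, plus strand, GRCm38) and shares 11268 bases with the antisense gene 4930483K19Rik, and reads of the pair can be told apart only if the counting used the strand of the reads.

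Iigp1, an interferon-inducible GTPase of cell-autonomous defence, also fell, from 2.35 ± 0.419 CPM under pNaKtide to 0.947 ± 0.357 CPM under oxLDL + pNaKtide (SD, n = 5 each). The 5 libraries with oxLDL held 0.579, 0.633, 0.888, 1.32 and 1.31 CPM and the 5 with the peptide alone 2.60, 2.36, 2.90, 2.06 and 1.84 CPM. The groups did not overlap, and the log2 fold change was -1.34 (SE 0.27, adjusted p = 0.0992). At this level a library holds few reads of the gene, and the adjusted p exceeded 0.1 in 9 of the 10 fits that left out 1 library, the log2 fold change staying between -1.50 and -1.21.

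The other called genes were 2 processed pseudogenes and 1 noncoding transcript, of which Gm9256 and Gm49172 are named only because the count is small, after their values were seen. Gm10356 on chromosome 3 (47050382 to 47051639) had 1.97, 2.11, 1.33, 0.828 and 2.72 CPM under oxLDL + pNaKtide and 3.95, 5.09, 4.44, 4.41 and 2.82 CPM under pNaKtide (log2 fold change -1.17, SE 0.22, adjusted p = 0.082). Gm9256 on chromosome 12 (115892884 to 115894303) averaged 1.45 ± 0.761 and 3.20 ± 0.454 CPM (SD, n = 5), with 1 library of each group overlapping the other at 2.66 and 2.61 CPM (log2 fold change -1.18, adjusted p = 0.0992). Reads of both pseudogenes may come from their parent genes, so their values are uncertain. Gm49172 on chromosome 15 (95972739 to 95994129) was the gene that rose, from 2.69 ± 0.852 to 5.04 ± 1.32 CPM (SD, n = 5; log2 fold change 0.91, SE 0.18, adjusted p = 0.0992), and 2013 of its bases lie opposite Ano6, whose log2 fold change was -0.00. With 1 of the 10 libraries left out in turn, Gm10356 was called in 2 of the fits and Gm9256 and Gm49172 in 1 each, with log2 fold changes of -1.36 to -1.03, -1.52 to -0.98 and 0.71 to 1.12.

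The genes of cholesterol synthesis, uptake and sterol control lay below 0 together, although Lss alone passed the threshold. Of 28 genes listed, 27 were tested. Their median log2 fold change was -0.25, against 0.01 over all genes tested, 24 of the 27 were below 0 (background 48.9%), and 13 had an unadjusted p under 0.05, all lower (background 4.16%). Summed over the list, expression was 3362 to 3754 CPM in the oxLDL + pNaKtide libraries and 3855 to 4337 CPM in the pNaKtide libraries, without overlap. The median stayed between -0.29 and -0.21 when 1 of the 10 libraries was left out and was -0.24 with GC content and length offsets, a fit that called 2 members lower (background 0.0995%), Mvd and Pmvk of the mevalonate branch, and not Lss. Other fits called 2 members with scaling by library size alone (background 0.0894%), 5 with the offsets and a replicate block (background 0.353%) and 2 without Control replicate 1 and indoxyl sulfate replicate 4, a fit chosen after seeing the data (background 0.0943%). The 3 members above 0 were Scap, Insig2 and Ebp (0.11, 0.09 and 0.05), and Mvd, Pmvk and these 3 are named after their values were seen.

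Insig1, the sterol sensor that retains SCAP and is itself an SREBP target, had 170, 180, 248, 130 and 147 CPM under oxLDL + pNaKtide and 250, 254, 331, 217 and 233 CPM under pNaKtide. All but oxLDL + pNaKtide replicate 3 were below the lowest pNaKtide library, and the log2 fold change was -0.55 (SE 0.15, adjusted p = 0.261). Hsd17b7, which reduces the 3-keto group of sterol intermediates, had 38.8, 43.8, 31.6, 29.3 and 40.6 against 45.6, 47.3, 54.4, 50.0 and 45.1 CPM, so that the groups did not overlap, at -0.39 on the log2 scale (SE 0.11, adjusted p = 0.261). Both passed the threshold in DESeq2 (adjusted p = 0.0725 and 0.0645).

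**Figure D3:**
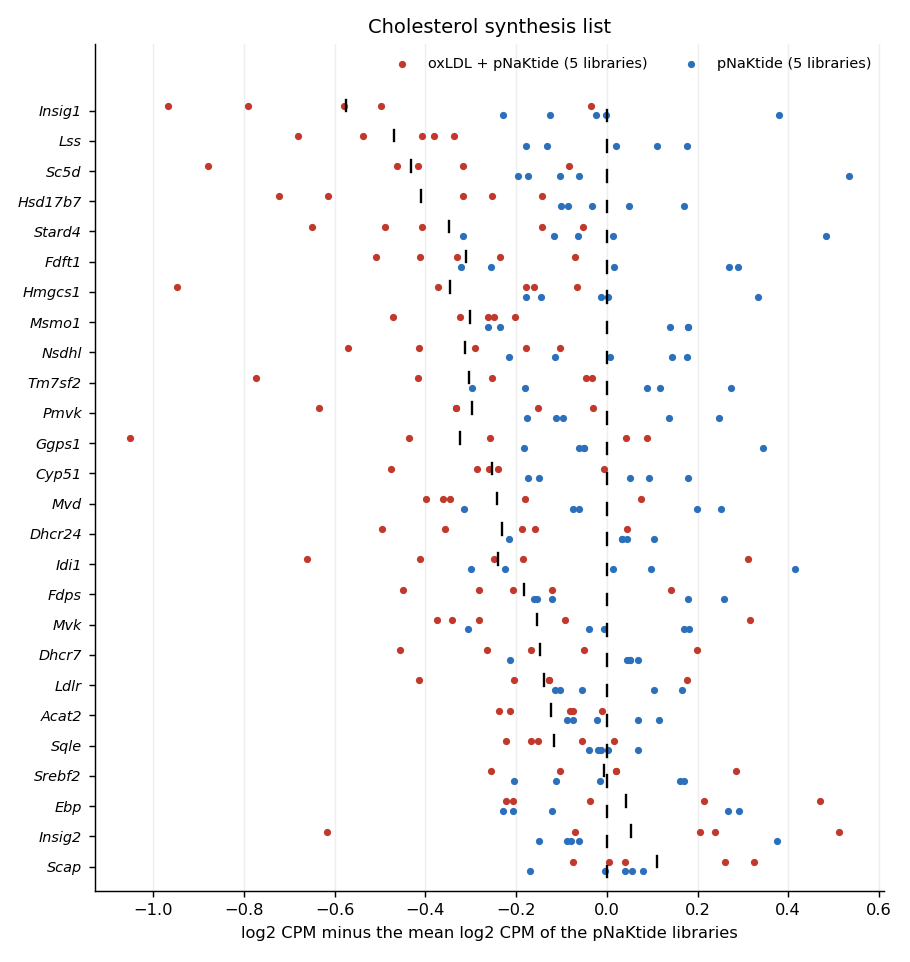
Each row is 1 of 26 members of the cholesterol synthesis list, sorted by log2 fold change; points are libraries (red, oxLDL + pNaKtide; blue, pNaKtide), the x axis is log2 CPM minus the mean log2 CPM of the 5 pNaKtide libraries, and black ticks mark group means. The oxLDL + pNaKtide mean lies to the left in 23 of 26 rows, and the groups are fully apart for Lss and Hsd17b7.

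The sequence before the start site is shown for these 3 list members, since they lay below 0 together. For 20 of the 28 listed genes RefSeq (GRCm38.p6) gave an entry, with 26 start sites. In the 250 bases before each start, 4 motifs were searched on both strands: the sterol regulatory element TCACNCCAC, the E-box CACGTG, the CCAAT box CCAAT and the GC box GGGCGG. None of these motifs overlapped another in the windows below, and capitals mark their matches on either strand.
Lss, chr10:76531355-76531604, plus strand: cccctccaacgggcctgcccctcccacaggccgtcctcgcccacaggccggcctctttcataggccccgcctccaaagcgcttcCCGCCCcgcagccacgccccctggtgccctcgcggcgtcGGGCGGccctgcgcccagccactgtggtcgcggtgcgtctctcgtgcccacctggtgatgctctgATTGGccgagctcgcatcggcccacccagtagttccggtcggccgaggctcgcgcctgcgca
Hsd17b7, chr1:169969206-169969455, minus strand: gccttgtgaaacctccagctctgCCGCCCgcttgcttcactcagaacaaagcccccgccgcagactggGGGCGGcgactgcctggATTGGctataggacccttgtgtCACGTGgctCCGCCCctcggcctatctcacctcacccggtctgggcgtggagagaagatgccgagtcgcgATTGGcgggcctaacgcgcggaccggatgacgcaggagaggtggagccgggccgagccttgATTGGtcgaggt
Insig1, chr5:28071162-28071411, plus strand: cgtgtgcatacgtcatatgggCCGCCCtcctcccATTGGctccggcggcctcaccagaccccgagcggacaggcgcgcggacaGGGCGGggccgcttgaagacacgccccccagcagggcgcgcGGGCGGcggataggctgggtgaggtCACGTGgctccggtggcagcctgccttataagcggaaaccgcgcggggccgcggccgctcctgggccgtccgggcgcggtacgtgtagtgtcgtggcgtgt

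All 3 windows held the CCAAT box, 1 match in Lss and Insig1 and 3 in Hsd17b7, and all 3 held the GC box. Among the list's windows 69.2% held CCAAT and 76.9% the GC box, against 33.8% and 32.7% of all 32851 windows. The GC content of the windows shown was 73.6% for Lss, 65.6% for Hsd17b7 and 72.8% for Insig1. The part of base composition in these shares was not tested. The E-box stood in 19.2% of the list's windows against 6.02% of all, and the sterol regulatory element as spelled in 1 of 26 (3.85%, Hmgcs1) against 1.05%. The Hsd17b7 and Insig1 windows shared a run of 14 bases around the E-box, GTCACGTGGCTCCG, which 4 of all windows held. A match is a description of the letters and not a bound site.

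Without the peptide, 20 of the 27 genes lay below 0 under oxLDL and 7 above, and the changes differed for 15. The cells given oxLDL alone had 16 members called lower (background 18%) and 3 called higher (background 18.1%) than Control, with a median log2 fold change of -0.40. A test of the difference between both oxLDL changes called 15 members (background 24.6%), 10 with a higher and 5 with a lower value in the presence of pNaKtide. Lss was not among them: it also fell without the peptide, from 202 ± 20.6 to 139 ± 3.14 CPM (SD, n = 5; log2 fold change -0.54, adjusted p = 0.00123), and the difference between its changes was 0.07 (SE 0.12, adjusted p = 0.736). For Insig1 the difference was called, with a log2 fold change of -0.55 with and 0.14 without pNaKtide (difference -0.69, SE 0.21, adjusted p = 0.0334).

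Fatty acid synthesis genes stood close to 0 as a list, with a median of -0.02 and 0 of 20 members called by edgeR, 3 by DESeq2, all lower (background 0.293%). For 2 members, which supply acetyl-CoA, all oxLDL + pNaKtide libraries were below all pNaKtide libraries (background 0.571%): Acss2, which activates acetate, averaged 78.6 ± 8.33 and 108 ± 16.5 CPM (SD, n = 5; log2 fold change -0.46, SE 0.11, adjusted p = 0.261), and Acly, which cleaves citrate, averaged 296 ± 46.6 and 375 ± 14.1 CPM (log2 fold change -0.34, SE 0.09, adjusted p = 0.261). Both were called by DESeq2 (adjusted p = 0.0477 and 0.0428), Acly also with GC content and length offsets (adjusted p = 0.0642). Without pNaKtide both were called lower under oxLDL (log2 fold changes -0.62 and -0.40), and their differences of 0.16 and 0.06 were not called. Me1, the malic enzyme that supplies NADPH, had a log2 fold change of -0.16 (adjusted p = 0.804).

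Transcripts of the mitochondrial genome lay above 0. All 15 tested had a positive log2 fold change (background 51.1%), with a median of 0.36, 8 had an unadjusted p under 0.05 (background 2.61% higher), the groups did not overlap for 5 (background 0.367%), and none was called by edgeR. Summed over the list, the groups overlapped, at 49530 to 70580 CPM under oxLDL + pNaKtide and 46280 to 53650 CPM under pNaKtide. Mitochondrial transcripts made up 4.31 to 6.61% and 4.48 to 5.34% of all counts, the lowest share being that of oxLDL + pNaKtide replicate 4. The highest-ranked of the 15 was mt-Co2, a core subunit of cytochrome c oxidase. Its libraries held 10200, 10500, 11100, 7920 and 9800 CPM under oxLDL + pNaKtide and 6950, 6780, 7380, 6570 and 6530 CPM under pNaKtide. Every library with oxLDL exceeded every library with the peptide alone, and the log2 fold change was 0.53 (SE 0.13, adjusted p = 0.247), with an adjusted p of 0.00822 in DESeq2 and 0.0111 with GC content and length offsets. Gm28661, whose counts nearly equal those of mt-Co2 (9934 and 6868 CPM on average), cannot be separated from it. mt-Nd6, a complex I subunit encoded on the opposite strand, averaged 772 ± 68.5 and 585 ± 22.6 CPM (SD, n = 5; log2 fold change 0.40, adjusted p = 0.372) without overlap. The ribosomal RNAs mt-Rnr1 and mt-Rnr2 had log2 fold changes of 0.52 and 0.63, for which oxLDL + pNaKtide replicate 1 stood far above the rest, with mt-Rnr2 at 1410 CPM against 454 to 570 in the other 4. Without that library their log2 fold changes were 0.28 and 0.22. The median of the 15 genes was between 0.24 and 0.43 with any 1 library left out. A bulk library cannot tell fewer cells of a kind from less RNA per cell, nor more mitochondrial transcripts from less of other RNA.

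**Figure D4:**
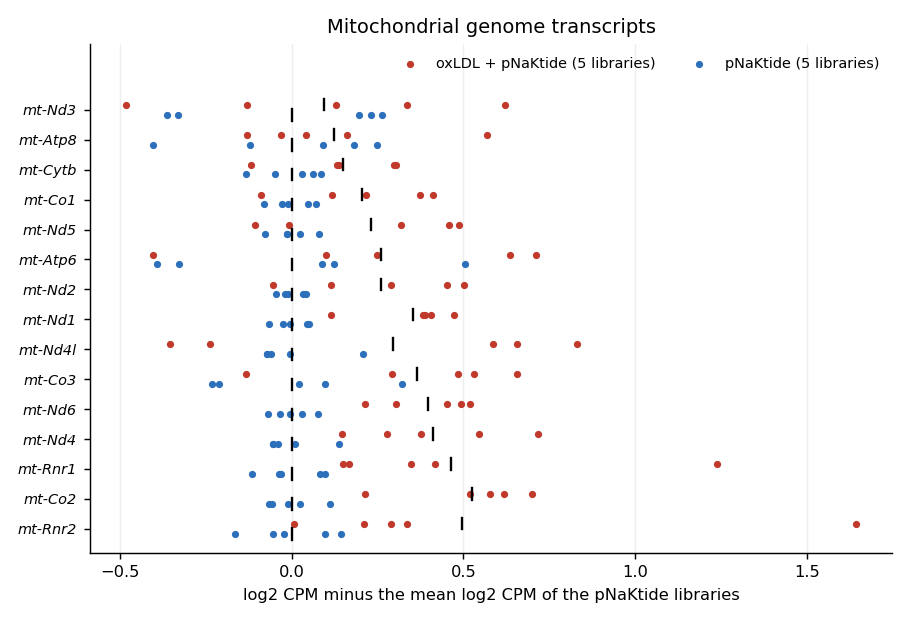
Rows are the 15 tested transcripts of the mitochondrial genome, points are libraries (red, oxLDL + pNaKtide; blue, pNaKtide), the x axis is log2 CPM minus the mean log2 CPM of the 5 pNaKtide libraries, and black ticks mark group means. For mt-Co2, mt-Nd1, mt-Nd4, mt-Nd6 and mt-Rnr1 all red points lie to the right of all blue points, and 1 library stands far to the right for both ribosomal RNAs.

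Nuclear genes of the respiratory complexes had a small positive median of 0.08, with 64 of 78 above 0 and none called by edgeR. Ndufb6, an accessory subunit of complex I, was the leading member, at 77.7 ± 2.37 and 64.9 ± 9.71 CPM (SD, n = 5; log2 fold change 0.26, adjusted p = 0.375, and 0.0890 in DESeq2). Ndufa5 and Ndufa6, also of complex I, had log2 fold changes of 0.22 and 0.21 (adjusted p = 0.613 and 0.634). In the absence of pNaKtide, 42 of the 78 were called lower (background 18%) and 6 higher (background 18.1%) under oxLDL, with a median of -0.27. The difference was called for 32 (background 24.6%), 31 of them higher with the peptide (background 12.8%).

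Cytosolic ribosomal protein genes had the largest median difference between both settings, 0.53, among lists of at least 10 tested genes. With pNaKtide in both groups their median was 0.11, 70 of 79 were above 0 and 0 were called (1 at an unadjusted p under 0.05). Without it, 65 of 79 were called lower under oxLDL (background 18%), with a median of -0.44, and 53 of 79 were called in the difference (background 24.6%), all higher with pNaKtide (background 12.8%). The median of 0.11 was 0.0043 without oxLDL + pNaKtide replicate 4 and 0.05 without pNaKtide replicate 3. Mitochondrial ribosomal proteins had medians of 0.08 with and -0.17 without the peptide, with 0 of 77 called with it. Without it, 28 were called lower (background 18%) and 6 higher (background 18.1%), and in the difference 27 were called higher (background 12.8%) and 1 lower (background 11.8%).

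**Figure D5:**
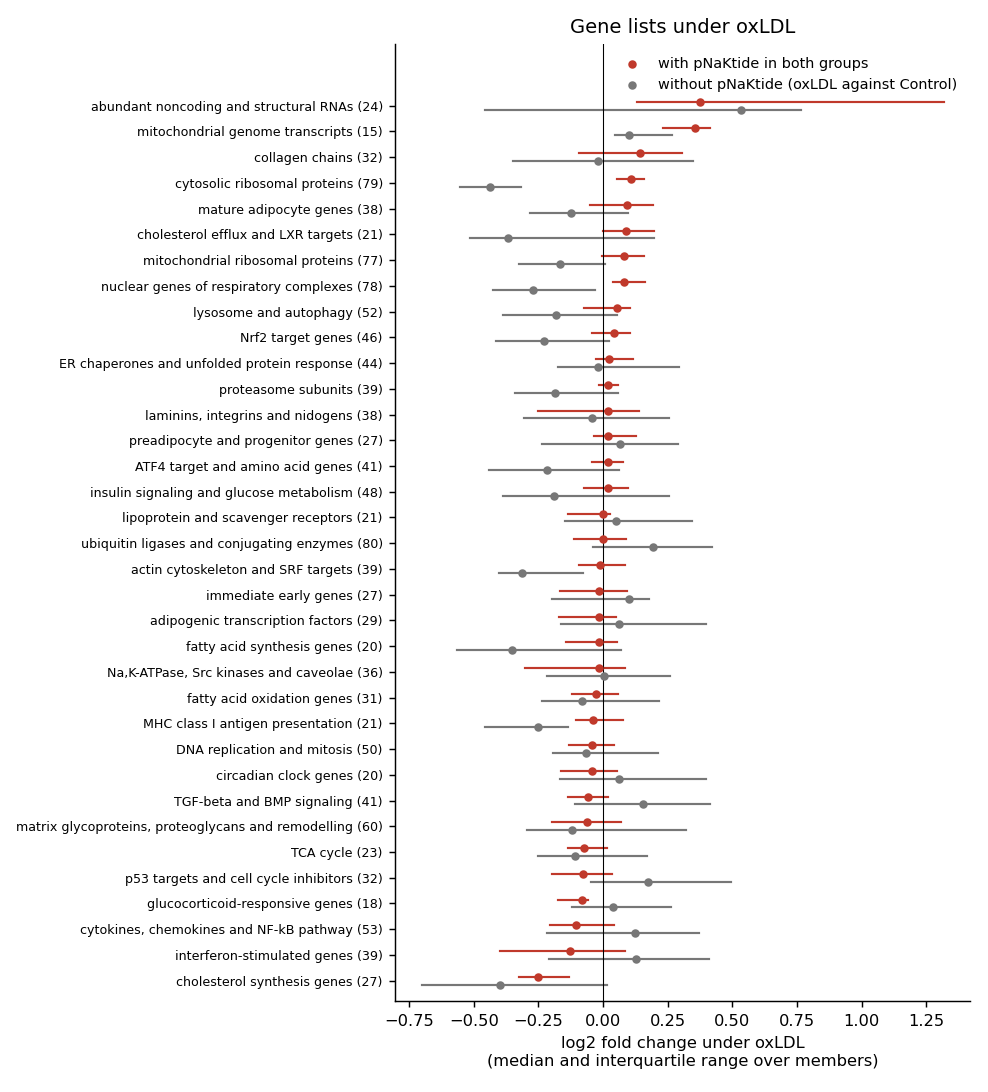
Points are the median log2 fold change under oxLDL over the members of each gene list with at least 10 genes tested (the number in parentheses) and lines the interquartile range, in red for cells with pNaKtide in both groups and in grey for oxLDL against Control; the x axis is in log2 units. The red medians lie between -0.13 and 0.14 but for cholesterol synthesis (-0.25), mitochondrial genome transcripts (0.36) and structural RNAs (0.38), and the ribosomal protein list sits on opposite sides of 0.

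Structural RNAs and transcripts that share sequence with ribosomal RNA stood far higher in 1 library. Rn7sk, the small nuclear RNA that holds the elongation factor P-TEFb inactive, had 211 CPM in oxLDL + pNaKtide replicate 1 and 11.8, 20.2, 18.7 and 12.7 CPM in replicates 2 to 5, against 5.43 to 14.5 CPM in the pNaKtide libraries. Gm26917, Gm42418 and Lars2 showed the same, with 1420, 65.4 and 2710 CPM in that library and at most 297, 18.4 and 530 CPM in the other 4. The list had a median of 0.38 with 23 of 24 tested members above 0 (background 51.1%), 0 called by edgeR and 5 by DESeq2, all higher (background 0.179%), and the log2 fold change of Rn7sk, 2.49 (SE 0.62, adjusted p = 0.261), was 0.70 without replicate 1. The median was 0.32 without that library and 0.17 without oxLDL + pNaKtide replicate 3. The depth of that library was within the range of its group.

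Among genes of the Na,K-ATPase and Src pathway, at which the peptide is aimed, 0 of 36 tested were called by edgeR, and the median was -0.02. At an unadjusted p under 0.05, 5 were lower (background 4.16%) and 2 higher (background 2.61%), and the groups lay apart for 3, all lower (background 0.571%). Src itself averaged 22.5 ± 1.77 and 22.7 ± 1.62 CPM (SD, n = 5; log2 fold change -0.01, 95% interval -0.18 to 0.16). Of the members whose groups lay apart, Shc1, an adaptor of receptor kinases, was at 213 ± 5.18 and 246 ± 6.36 CPM (log2 fold change -0.21, adjusted p = 0.420, and 0.0427 in DESeq2), and Prkcd, a protein kinase C, was at 58.5 ± 3.52 and 67.8 ± 4.73 CPM (-0.21, adjusted p = 0.550). The caveolar protein gene Cavin2 averaged 178 ± 20.6 and 220 ± 28.8 CPM (-0.30, adjusted p = 0.420).

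Of 9 inflammatory and kinase genes on which the study centred, Creb1, Chuk, Tlr4, Cdkn1a, Prkca, Nos3, Ccl2, Il6 and Src, 0 were called with the peptide in both groups. Creb1, a transcription factor of cAMP signaling, averaged 12.6 ± 3.00 under oxLDL + pNaKtide and 14.6 ± 2.52 CPM under pNaKtide (SD, n = 5; log2 fold change -0.20, interval -0.61 to 0.20). Tlr4, the endotoxin receptor, averaged 5.77 ± 1.25 and 7.5 ± 1.53 CPM (-0.37, interval -0.79 to 0.04). Chuk, the IKKα kinase, averaged 25.5 ± 6.59 and 29.5 ± 11.3 CPM (-0.20, interval -0.69 to 0.28), with pNaKtide replicate 3 alone at 49.6 CPM, without which the log2 fold change was 0.08. In the absence of pNaKtide, Creb1, Tlr4 and Chuk rose under oxLDL, by log2 fold changes of 0.75, 0.61 and 0.73, and Cdkn1a fell by 0.40 on that scale. These differences between both settings were called for Creb1 (-0.96, adjusted p = 0.0285), Tlr4 (-0.99, adjusted p = 0.0270), Chuk (-0.93, adjusted p = 0.0538) and Cdkn1a (0.42, adjusted p = 0.0577). Ccl2 was also called higher under oxLDL without the peptide, at 1.98 ± 0.23 against 1.29 ± 0.275 CPM (log2 fold change 0.60, adjusted p = 0.0994). Its difference of -0.82 was not called (adjusted p = 0.213). Prkca had log2 fold changes of -0.04 with and 0.23 without the peptide and was called in neither. Nos3 and Ccl2 stood near 1 CPM with intervals of -0.26 to 1.29 and -0.95 to 0.52, and Il6 had 0.101 CPM in 1 library and 0 in the other 9, so that no fold is given.

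Interferon-stimulated genes lay below 0 on balance, with a median of -0.13 over 39 tested genes, 27 below 0 (background 48.9%) and 0 called. Iigp1, which was called, is not among the members of this list. The Ifit genes, which encode binders of foreign RNA, led the list. Ifit3 had 1.97, 3.06, 4.18, 2.81 and 2.22 CPM under oxLDL + pNaKtide and 3.50, 3.48, 4.07, 9.41 and 12.4 CPM under pNaKtide. The contrast came from pNaKtide replicates 4 and 5, while replicates 1 to 3 overlapped the oxLDL + pNaKtide libraries, and the log2 fold change was -1.18 (SE 0.40, adjusted p = 0.452). Ifit3b and Ifit1 had log2 fold changes of -1.32 and -0.997 (adjusted p = 0.365 and 0.619) and the same 2 highest libraries. Their changes without the peptide, 0.88 for Ifit3, 1.00 for Ifit3b and 0.74 for Ifit1, had the opposite sign, and the differences were called (-2.06, -2.32 and -1.74). Irf3, the transcription factor upstream, averaged 50.8 ± 6.65 and 44.9 ± 3.18 CPM (SD, n = 5; 0.18, adjusted p = 0.734).

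Cytokines, chemokines and NF-κB genes had a median of -0.10 over 53 tested, with 0 called. At an unadjusted p under 0.05, 5 were lower (background 4.16%) and 1 was higher (background 2.61%), the latter share being no larger than over all genes. Nfkb1, the p50 precursor, averaged 30.7 ± 4.84 and 36.6 ± 3.93 CPM (SD, n = 5; -0.25, adjusted p = 0.561), Tlr2 4.16 ± 0.585 and 5.41 ± 0.725 CPM (-0.39, adjusted p = 0.575), and Il1rap, the interleukin-1 receptor partner, 17.3 ± 5.11 and 22.4 ± 4.58 CPM (-0.37, adjusted p = 0.666). Irak2, a kinase of the same receptor pathway, averaged 10.8 ± 1.21 and 13.3 ± 1.78 CPM (-0.29, adjusted p = 0.672). The list's median was -0.03 without pNaKtide replicate 3.

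Nrf2 target genes, which answer oxidants, were close to 0, with a median of 0.04 over 46 genes and 0 called. Nfe2l2, which encodes Nrf2 itself, was the leading member with groups that did not overlap, at 89.1, 87.4, 87.5, 79.0 and 84.2 CPM under oxLDL + pNaKtide and 104, 108, 106, 92.9 and 95.4 CPM under pNaKtide. Its log2 fold change was -0.24 (SE 0.07, adjusted p = 0.337, and 0.0458 in DESeq2). Nqo1, a quinone reductase, ran from 19.5 to 22.3 and from 21.5 to 27.8 CPM (-0.26, adjusted p = 0.435), and Gclc, of glutathione synthesis, 15.7 ± 1.10 and 18.7 ± 2.17 CPM (-0.26, adjusted p = 0.674). The transporter Abcc3 had 0.204 ± 0.238 and 0.438 ± 0.171 CPM, too few counts for a comparison at this depth. Without pNaKtide the log2 fold changes of Nfe2l2, Nqo1 and Gclc were 0.02, 0.03 and 0.23, and the 3 differences were called (adjusted p = 0.0658, 0.0846 and 0.0381), whereas over the list 16 members were called higher (background 12.8%) and 3 lower (background 11.8%) in the difference.

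Mature adipocyte genes stood near 0, with a median of 0.09 over 38 genes and 0 called. At an unadjusted p under 0.05, 4 were higher (background 2.61%) and 0 lower. Among the leading members, the insulin-responsive glucose transporter Slc2a4 averaged 51.1 ± 3.63 and 43.4 ± 4.85 CPM (SD, n = 5; log2 fold change 0.23, adjusted p = 0.674), the lipid droplet assembly gene Bscl2 17.1 ± 2.20 and 14.2 ± 1.86 CPM (0.27, adjusted p = 0.71), and the glycerol channel Aqp7 16.2 ± 2.74 and 13.4 ± 2.41 CPM (0.28, adjusted p = 0.714). Pparg, the master regulator of adipogenesis, averaged 164 ± 8.07 and 174 ± 18.9 CPM (SD, n = 5; log2 fold change -0.08, interval -0.25 to 0.09) and its partner Cebpa 254 ± 27.5 and 228 ± 30.6 CPM (0.16, interval -0.07 to 0.39). The fatty acid carrier Fabp4 averaged 2670 ± 265 and 2630 ± 197 CPM (0.03, interval -0.18 to 0.23), the lipid droplet coat Plin1 610 ± 54.0 and 593 ± 40.3 CPM (0.04, interval -0.15 to 0.23), Lpl, the lipase that frees fatty acid from lipoproteins, 4140 ± 374 and 4070 ± 218 CPM (0.02, interval -0.16 to 0.21), and the adipokine Adipoq 1270 ± 122 and 1150 ± 203 CPM (0.14, interval -0.11 to 0.40). Lep was at 0 to 0.463 CPM and cannot be compared at this depth. The scavenger receptor Cd36 averaged 668 ± 130 and 767 ± 160 CPM (-0.20, interval -0.49 to 0.09); without pNaKtide it was called higher under oxLDL, at 1110 ± 131 against 768 ± 101 CPM (0.53, adjusted p = 0.0109), and the difference of -0.73 was called (adjusted p = 0.0263). Dgat1, the last step of triglyceride synthesis, had log2 fold changes of 0.30 with (adjusted p = 0.435) and -0.36 without the peptide, and a called difference of 0.66 (adjusted p = 0.0179).

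In the TCA cycle list, which shares Acly, 0 of 23 genes were called by edgeR and 2 by DESeq2, both lower (background 0.293%), with a median of -0.07. Idh1, a cytosolic source of NADPH, averaged 381 ± 48.6 and 501 ± 103 CPM (SD, n = 5; -0.40, SE 0.12, adjusted p = 0.331, and 0.0642 with GC content and length offsets). Genes of cholesterol efflux and other LXR targets, which answer oxysterols, had a median of 0.09 over 21 tested with 0 called and none at an unadjusted p under 0.05. Npc1, which exports cholesterol from lysosomes, averaged 50.2 ± 9.42 and 43.5 ± 8.97 CPM (0.21, adjusted p = 0.779), and Lpcat3, a phospholipid-remodelling LXR target, 568 ± 98.2 and 504 ± 36.8 CPM (0.17, adjusted p = 0.821). Apoe, a lipid-carrying apolipoprotein, averaged 9.97 ± 1.81 and 8.70 ± 1.29 CPM (0.20, adjusted p = 0.819), and the sterol transporter Abcg4 0.582 ± 0.344 and 1.03 ± 0.421 CPM (adjusted p = 0.804). Lpcat3 was called lower under oxLDL without the peptide (-0.52, adjusted p = 0.00771) and called in the difference (0.69, adjusted p = 0.0204).

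The remaining lists held 0 called members by edgeR, and by DESeq2 the ATF4 list held 2 and the actin list 1, all lower (background 0.293%). Adipogenic transcription factors, fatty acid oxidation, scavenger receptors, ATF4 targets, unfolded protein response, MHC class I, matrix glycoproteins, laminins and integrins, progenitor genes, actin cytoskeleton, proteasome, ubiquitin enzymes, DNA replication, p53 targets, NADPH oxidases, TGF-β signaling, insulin signaling, lysosome, glucocorticoid response, clock and immediate early genes had medians between -0.08 and 0.05, and collagen chains 0.14. Of the 32 p53 targets and cell cycle inhibitors tested, 6 were lower and 0 higher at an unadjusted p under 0.05 (background 4.16% and 2.61%). For collagen chains the interquartile range over 32 genes was -0.09 to 0.30. Medians of the macrophage and endothelial markers were 0.02 and 0.12 over 9 and 5 genes tested, and those of muscle and epithelial markers 1.07 and -0.12 over 6 each, at summed levels of 20.01 to 39.7 CPM for muscle and 1.81 to 10.1 CPM for epithelium, the highest epithelial sum being that of a pNaKtide library.

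Across all genes, the median size of the oxLDL change was smaller with the peptide than without, and 4951 genes passed the test of the difference between both changes. OxLDL against Control called 7259 genes (36%), 3637 higher (18.1%) and 3622 lower (18%), at a median absolute log2 fold change of 0.28 and a median SE of 0.13 for the same 12560 genes. These 4951 (24.6%) were 2575 (12.8%) with a higher and 2376 (11.8%) with a lower value in the presence of pNaKtide, a split of 1279 and 3991 when counts were scaled by library size alone. Of the 7259 genes, 4333 (59.7%) were called in the difference and 2, Lss and Iigp1, were called with the peptide as well. Genes called higher by oxLDL alone had a median log2 fold change of 0.54 there and -0.09 with pNaKtide in both groups, and those called lower -0.41 and 0.07. Across the 12560 genes, which are not independent replicates, Pearson's r between both changes was -0.35, and -0.17 with GC content and length offsets. The log2 fold change went with GC content in both settings and with opposite sign (Spearman's rho 0.343 with and -0.689 without the peptide), and with the offsets 2314 genes (11.5%) were called in the difference. Leaving out oxLDL + pNaKtide replicates 1 and 4 left 1159 genes, leaving out pNaKtide replicate 3 left 2109, oxLDL + pNaKtide replicate 4 left 2525, Control replicates 2 and 4 in turn left 3150 and 2837, and leaving out Control replicate 1 gave 7504.

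The genes with the smallest adjusted p for the difference were of both directions. Without the peptide Iigp1 rose, with 3.81 ± 0.682 CPM under oxLDL against 1.88 ± 0.632 CPM in Control (SD, n = 5; log2 fold change 1.02, adjusted p = 0.00683), and the difference between the changes was -2.35 (SE 0.34, adjusted p = 0.00129). Abcb6, a porphyrin transporter, had 11.9, 13.0, 12.2, 15.6 and 12 CPM under oxLDL + pNaKtide and 9.14, 10.8, 9.32, 8.72 and 10.6 CPM under pNaKtide. These groups did not overlap (log2 fold change 0.41, adjusted p = 0.371) and lay in the opposite order from oxLDL at 6.84 ± 0.604 and Control at 10.2 ± 1.44 CPM (difference 0.98, SE 0.18, adjusted p = 0.0128). Sez6l2, a neuronal membrane protein gene, averaged 5.38 ± 1.70 and 2.66 ± 0.936 CPM with the peptide (log2 fold change 0.98, adjusted p = 0.162) and 2.09 ± 0.144 and 3.28 ± 0.295 CPM without (difference 1.64, adjusted p = 0.0128). The others were the processed pseudogenes Gm7535 (difference 1.06), Gm14970 (-0.82) and Gm2223 (-1.02), whose reads may belong to parent genes.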

How the data were processed

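Poly(A) RNA-seq of 3T3-L1 cells gave raw counts per gene, as deposited by the authors, and FPKM values, also as deposited by the authors (fragments scaled by transcript length and library size); a table of normalized counts was not used. The submitters' processing notes name Trimmomatic 0.38, HISAT2 2.1.0 and DESeq2 1.20.0 with the GRCm38 build; the library kit keeps strand, while neither the annotation release nor whether counting used strand is stated in the paper or labels. Groups were read from the labels. Testing covered genes whose summed count over the 30 libraries exceeded 14 (20139 of 54232) in edgeR 4.0.16 (R 4.3.3), with TMM scaling, 6 groups in 1 robust quasi-likelihood fit, contrasts for oxLDL with and without pNaKtide and for their difference, and a Benjamini-Hochberg adjusted p threshold of 0.1; every adjusted p is from this fit unless DESeq2 (1.42.0), the offsets below or a fit without 1 library is named. FPKM were tested with limma 3.58.1 on log2(FPKM + 1), where a fold understates the change of low genes. Offsets for GC content and length came from mgcv 1.9.3 and GENCODE gene models. Total counts were 6945498 to 11534363 in the 10 libraries, so intervals and low counts carry counting error.

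Named genes were called genes averaging 1 or more on the log2 CPM scale whose groups lay apart (at most 12 per direction), the leading called member of each list, 18 fixed genes, the 3 genes per direction with the smallest adjusted p for the difference, and up to 4 members per list. Some genes these rules picked are not reported here. The members and the 40 gene lists were chosen with earlier results of these data known. The test was tried on simulated counts. No pair of libraries was a duplicate (lowest chi-square per degree of freedom 1.36 over 20 pairs). Motifs were searched in RefSeq promoters with Python 3.11.15.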

Additional observations from a re-analysis of the deposited data

Results flagged for a closer look

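The difference between the oxLDL change with and without pNaKtide was tested with edgeR's interaction test. It passed an adjusted p of 0.1 for 38 of the 68 genes chosen by the rules for named genes. Of the 38, 6 were chosen by their adjusted p in this test. List members were chosen by a small p between oxLDL + pNaKtide and pNaKtide, a contrast that is part of this difference in the same libraries. The choice can by itself raise the share of named genes that pass. That share therefore cannot be compared with the 24.6% of all genes tested. Values below are log2 differences, and a positive value means a higher oxLDL change with the peptide.

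Higher with the peptide were Gm7535 (1.06), Abcb6 (0.98), Sez6l2 (1.64), Cdkn1a (0.42), Cebpa (0.46), mt-Rnr1 (0.706), mt-Rnr2 (0.832), Ndufc1 (0.364), Gm42418 (1.93), Rn7sk (2.98), Gm26917 (1.95), Lars2 (1.71), Irf3 (0.484), Dgat1 (0.661), Slc2a4 (0.418), Npc1 (0.399) and Lpcat3 (0.689). For Rn7sk, Gm42418, Gm26917, Lars2 and both ribosomal RNAs, 1 library, oxLDL + pNaKtide replicate 1, stood apart.

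Lower with the peptide were Gm10356 (-1.48), Creb1 (-0.956), Chuk (-0.932), Tlr4 (-0.985), Cd36 (-0.728), Iigp1 (-2.35), Gm14970 (-0.816), Gm2223 (-1.02), Insig1 (-0.692), Cavin2 (-0.472), Nfkb1 (-0.351), Il1rap (-0.737), Ifit3b (-2.32), Ifit3 (-2.06), Ifit1 (-1.74), Nfe2l2 (-0.268), Nqo1 (-0.297), Gclc (-0.484), Idh1 (-0.631), Idh3a (-0.45) and Suclg2 (-0.488).

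Of the genes mentioned for other reasons, Mvd (0.686), Scap (0.592), Ebp (0.773), Hmgcs1 (-0.632), Dlk1 (0.955), Gm49172 (0.741) and Gm9256 (-1.17) also passed, as did Fcgbp, for which no fold is given because the oxLDL + pNaKtide libraries held 0 to 1 counts of it.

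Single libraries far from the other 4 of their group by Dixon's ratio, which chance gives in about 1 in 20 groups, were oxLDL + pNaKtide replicate 1 for mt-Rnr1 (1310 CPM), mt-Rnr2 (1410), Gm42418 (65.4), Rn7sk (211), Gm26917 (1420), Lars2 (2710) and Gclc (17.6), replicate 3 of that group for Acss2 (64.4) and replicate 4 for Abcb6 (15.6) and Nqo1 (22.3). pNaKtide replicate 3 stood apart for Chuk (49.6), Gm14970 (20.1) and Gm2223 (53.6), and it is also the library whose deviation went with lower GC content. The part of base composition in these values was not tested.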

How the results depend on the processing

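The count of 5 genes called with the peptide became 95 in DESeq2, 4 with RLE factors, 18 with scaling by library size only, 1 for genes over 14 counts in every library, 6 with filterByExpr, 4 with genes of at least 1 count, 0 in the compared groups alone, 15 with limma on FPKM, 33 with GC content and length offsets, 71 with these offsets and the block, 0 at an adjusted p of 0.05, and 0 to 4 with 1 library left out. Chosen after seeing the data, leaving out pNaKtide replicates 2 and 4 gave 1, oxLDL + pNaKtide replicates 1 and 4 gave 1, and Control replicate 1 with indoxyl sulfate replicate 4 gave 19. The replicate block gave 6 genes with the peptide and 5996 in the difference. Same-numbered libraries had deviations correlated at -0.263, -0.475, 0.497, -0.0696 and 0.222, and only replicates 3 and 5 correlated best with their own number, so the numbers were not taken as pairs. In the difference, 4951 genes became 5876 in DESeq2, 2314 with the offsets, 2841 with offsets and block, 2707 at an adjusted p of 0.05, 1159 without oxLDL + pNaKtide replicates 1 and 4, 8049 without Control replicate 1 and indoxyl sulfate replicate 4, and 2109 to 7504 with 1 library left out.

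By list, the number of members called changed as follows. DESeq2 (0.472% of all genes) called 3 of cholesterol synthesis, 3 of fatty acid synthesis, 2 each of the ATF4 and TCA cycle lists, 5 structural RNAs and 1 each of the Nrf2, actin, mitochondrial genome, nuclear respiratory and Na,K-ATPase lists. Library size only (0.0894%) called 2 of cholesterol and 2 of fatty acid synthesis and 1 each of the ATF4, Na,K-ATPase and TCA cycle lists. GC content and length offsets (0.164%) called 2 of cholesterol synthesis, 2 of the TCA cycle and 1 each of fatty acid synthesis and the mitochondrial genome. Offsets with the replicate block (0.353%) called 5 of cholesterol synthesis, 2 each of fatty acid synthesis, the mitochondrial genome and the TCA cycle, and 1 each of the nuclear respiratory, proteasome, ubiquitin, DNA replication and Na,K-ATPase lists. For cholesterol synthesis the compared groups alone called 0, 1 library left out 0 to 1, and leaving out pNaKtide replicates 2 and 4 or oxLDL + pNaKtide replicates 1 and 4 gave 0. Without Control replicate 1 and indoxyl sulfate replicate 4 (0.0943%), 2 of cholesterol and 2 of fatty acid synthesis and 1 mitochondrial transcript were called.

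Medians moved for ER chaperones (-0.0384), the Na,K-ATPase list (-0.0811) and glucocorticoid-responsive genes (-0.145) with library size only, a scaling that shifted the median of all genes to -0.056. With 1 library left out, medians were -0.127 to -0.0321 for the NF-κB list, -0.0725 to 0.0027 for the Na,K-ATPase list (-0.101 without oxLDL + pNaKtide replicates 1 and 4), 0.165 to 0.521 for structural RNAs, -0.211 to 0.174 for endothelial and 0.644 to 1.13 for muscle markers. The muscle median was 0.198 for genes over 14 counts in every library, 0.205 with filterByExpr, 0.247 with limma, 0.765 without pNaKtide replicates 2 and 4 and 0.837 without oxLDL + pNaKtide replicates 1 and 4.

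Signs turned for some changes, none of them called. With library size only, log2 fold changes were -0.0396 for Cdkn1a, -0.0325 for Fabp4, -0.0231 for Plin1 and -0.0368 for Lpl. With offsets, and with offsets and block, they were -4.91e-05 and -0.00122 for Cdkn1a, 0.0336 and 0.0331 for Prkca, and -0.0137 and -0.0124 for Plin1. Src was at 0.00411 in DESeq2 and 0.00232 with filterByExpr. Without oxLDL + pNaKtide replicates 1 and 4, Cdkn1a was at -0.0493, Nos3 at -0.107 and Src at 0.0452, and without pNaKtide replicates 2 and 4 Fabp4 was at -0.00979. With 1 library left out, ranges were -0.32 to 0.0783 for Chuk, -0.0281 to 0.0794 for Cdkn1a, -0.0993 to 0.023 for Prkca, -0.628 to 0.0462 for Ccl2, -0.0568 to 0.033 for Src, -0.0362 to 0.063 for Fabp4 and -0.00275 to 0.0823 for Lpl. The causes were not tested. Genes with few counts, such as Iigp1, Nos3 and Ccl2, are limited by depth.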
